A study of Homo sapiens with 3 samples.

Results

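The S100 and annexin genes were examined in 2 neuroblastoma cell lines, NGP and IMR-32, and in a pool that mixes the RNA of 16 cancer cell lines and serves as the reference. The genes were taken by family membership, and the list was in part chosen from the readout, because S100A11 was among the lowest ratios of IMR-32 over the pool. Of 31 listed genes, 30 were measured, 19 S100 genes and 11 annexin genes, by 45 probe sets that name the gene alone, among 19775 genes measured in all. ANXA8 is named only together with its near copy ANXA8L1 and was not counted. Each sample was hybridized to 1 Affymetrix U133 Plus 2.0 array, and all cells were untreated. MYCN is amplified in both lines. The lines were grown in different media, NGP in RPMI 1640 and IMR-32 in Minimum Essential Medium with non-essential amino acids and pyruvate, so that line and medium cannot be told apart. The sources used here do not name the 16 lines of the pool. A high pool signal can stem from many lines or from a few with much RNA, and these cannot be told apart.

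S100 proteins are small proteins with a pair of EF-hand loops and work mostly as dimers. Most of them, though not all, bind calcium through these loops and, once loaded with it, attach to target proteins. Annexins bind acidic phospholipids of membranes when calcium rises, and act in membrane trafficking, repair and the link between membrane and actin. Members of both families form complexes, of which S100A10 with ANXA2, S100A11 with ANXA1 and S100A6 with ANXA11 are well known. Most S100 genes lie in a cluster on 1q21, and many are strongly expressed in epithelia, myeloid cells or mesenchyme.

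The values are MAS5 signals on a linear scale, with array medians of 98.8 in NGP, 89.9 in IMR-32 and 119 in the pool. A signal below its array's median is called dim here. Expression ratios are log2 ratios without a pseudocount, the value of a gene is the median over its probe sets, and a gene was called higher or lower within the top or bottom 7% of all genes. These limits lay at 1.84 and -2.88 for NGP over the pool, at 1.68 and -2.83 for IMR-32 over the pool, and at 1.95 and -1.84 for NGP over IMR-32. With 1 array per sample there is no replicate check and no p-value. The number of arrays limits the precision, and the only measure of spread is that between probe sets of the same gene, with a standard deviation of 1.41 for NGP over the pool, 1.31 for IMR-32 over the pool and 1.28 for NGP over IMR-32. Fold differences written as "at least" are bounds, for which dim signals were raised to the array median, and a log2 ratio with a dim side gives no exact size.

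The labelled cell type was checked first. Of 10 measured sympathoadrenal marker genes, 8 were called higher in NGP and 5 in IMR-32, over the pool. PHOX2A, a homeobox factor of this lineage, had signals of 9948 in NGP, 6553 in IMR-32 and 683 in the pool. The catecholamine enzymes TH and DBH were not called higher in IMR-32, with log2 ratios of -1.40 and -0.33, against 4.01 and 2.06 in NGP.

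In each neuroblastoma line, 26 of the 30 S100 and annexin genes had a ratio over the pool below 0. Of all 19775 genes, 57.7% had one in NGP and 58.4% in IMR-32. In NGP, 18 of the 30 genes were called lower than in the pool and 1 higher, where 7.004% of all genes (1385) are called at either end by construction. In IMR-32, 18 were called lower and 0 higher, again beside 7.004% of all genes at either end. This second contrast took part in the choice of the list, so nothing is read from its count, and without S100A11 it was 17 of 29. The median log2 ratio of the members was -3.66 in NGP and -3.25 in IMR-32, while that of all genes was -0.22 in NGP and -0.23 in IMR-32. Both comparisons use the same pool array. The S100 genes had medians of -4.02 in NGP and -4.27 in IMR-32, with 12 of 19 called lower in each line. The annexins had medians of -3.17 in NGP and -2.87 in IMR-32, with 6 of 11 called lower in each. Summed over the brightest probe set of each gene, the S100 signal was 1858 in NGP, 3471 in IMR-32 and 75902 in the pool, and the annexin signal was 6496 in NGP, 22769 in IMR-32 and 64833 in the pool. By this sum the annexins of IMR-32 stood closest to the pool, and ANXA2 alone made up most of them.

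**Figure D1:**
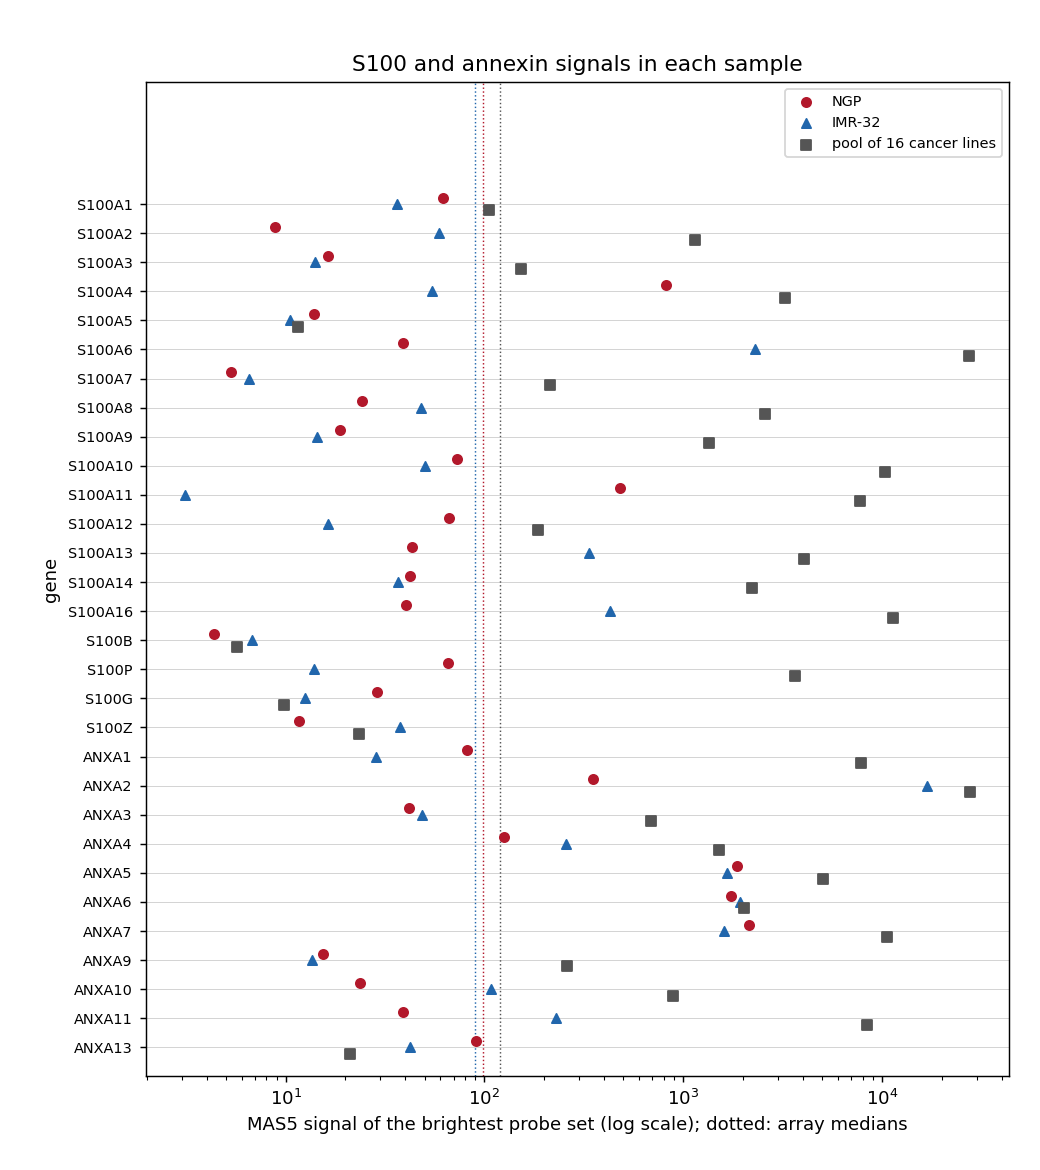
MAS5 signals (x-axis, log scale) of the brightest probe set of each of the 30 measured genes (y-axis) in NGP, IMR-32 and the pool, 1 array each, with the array medians as dotted lines. For most genes the pool lies far to the right of both lines. ANXA2 in IMR-32 (16856) lies near the pool (27557), and S100A11 in IMR-32 (3.11) lies at the far left.

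Of the 30 genes, 6 were dim on all 3 arrays in every probe set, namely S100A1, S100A5, S100B, S100G, S100Z and ANXA13. A further 12 were dim in both lines and not in the pool. A filter on brightness keeps these 12 because of the pool alone, so the genes that pass such a filter must differ and their share is not used here.

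The promoter windows of 6 members are shown because these genes carry the main contrasts described below. Once dim signals were raised to the array median, S100P and S100A16 had the lowest gene values by the weaker of both lines. A gene value is the median over probe sets. With the brightest probe set alone, S100A10 and ANXA1 had larger bounds by the weaker line. S100A11 and S100A4 were called higher in NGP than in IMR-32 with NGP signals above the array median. ANXA2 and S100A10, added after their values were seen, encode the 2 partners of one complex. Each window runs from 250 bases before to 50 bases after the gene start, in GRCh38.p14, from RefSeq, read 5′ to 3′ on the gene's strand. Capitals mark matches on either strand to an AP-1 site (TGANTCA), an E-box (CACGTG), a GC box (GGGCGG) or a TATA box (TATAAA).
S100P, chr4:6693628-6693927, plus strand: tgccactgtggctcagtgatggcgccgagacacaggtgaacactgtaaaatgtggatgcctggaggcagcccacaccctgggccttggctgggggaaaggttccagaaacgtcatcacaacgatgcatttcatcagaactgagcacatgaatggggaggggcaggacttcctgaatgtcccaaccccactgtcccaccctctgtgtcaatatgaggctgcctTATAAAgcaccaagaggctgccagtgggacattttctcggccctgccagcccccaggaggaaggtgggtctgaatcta
S100A16, chr1:153613088-153613387, minus strand: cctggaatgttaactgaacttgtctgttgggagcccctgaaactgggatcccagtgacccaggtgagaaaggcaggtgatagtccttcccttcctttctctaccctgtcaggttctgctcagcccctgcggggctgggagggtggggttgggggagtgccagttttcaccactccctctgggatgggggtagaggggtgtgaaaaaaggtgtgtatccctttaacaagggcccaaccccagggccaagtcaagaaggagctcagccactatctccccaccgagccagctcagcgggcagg
S100A11, chr1:152036955-152037254, minus strand: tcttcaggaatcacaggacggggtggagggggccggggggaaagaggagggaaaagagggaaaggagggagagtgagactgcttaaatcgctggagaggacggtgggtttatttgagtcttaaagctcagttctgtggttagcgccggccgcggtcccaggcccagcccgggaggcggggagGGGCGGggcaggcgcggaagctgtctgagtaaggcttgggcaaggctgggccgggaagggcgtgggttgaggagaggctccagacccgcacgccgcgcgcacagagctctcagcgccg
S100A4, chr1:153545757-153546056, minus strand: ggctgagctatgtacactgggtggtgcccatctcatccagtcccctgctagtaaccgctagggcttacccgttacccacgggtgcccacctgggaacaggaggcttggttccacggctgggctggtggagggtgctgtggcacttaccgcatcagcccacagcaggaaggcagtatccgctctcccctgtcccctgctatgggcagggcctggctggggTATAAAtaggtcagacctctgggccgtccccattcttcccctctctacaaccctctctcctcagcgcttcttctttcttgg
ANXA2, chr15:60397937-60398236, minus strand: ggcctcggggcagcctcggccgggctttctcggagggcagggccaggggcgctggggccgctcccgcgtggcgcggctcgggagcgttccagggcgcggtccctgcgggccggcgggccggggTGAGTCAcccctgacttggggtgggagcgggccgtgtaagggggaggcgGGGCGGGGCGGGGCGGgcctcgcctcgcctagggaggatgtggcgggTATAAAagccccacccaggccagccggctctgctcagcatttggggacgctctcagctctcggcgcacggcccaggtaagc
S100A10, chr1:151993810-151994109, minus strand: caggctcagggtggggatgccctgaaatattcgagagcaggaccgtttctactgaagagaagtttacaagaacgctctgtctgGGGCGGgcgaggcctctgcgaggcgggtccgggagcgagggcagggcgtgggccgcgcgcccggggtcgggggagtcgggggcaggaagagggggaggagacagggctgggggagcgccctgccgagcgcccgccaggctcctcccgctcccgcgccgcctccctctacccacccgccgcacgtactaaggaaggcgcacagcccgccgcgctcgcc

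S100P and S100A4 have a TATA box 28 and 31 bases before the gene start, and S100A16 has none of these motifs in the window shown, while its other window in the reference holds a GC box. S100A11 and S100A10 have a single GC box each. The ANXA2 window holds an AP-1 site, 3 overlapping GC boxes and a TATA box. A CG pair occurs 32 times in the windows of ANXA2 and of S100A10 and 22 times in that of S100A11, but only 5 times in that of S100P, 8 times in that of S100A4 and 3 times in the one shown for S100A16, beside a median of 14 over 35097 promoter windows of the reference. Of 28 measured members with a window that was searched, 13 have a TATA box, 13 a GC box, 5 an AP-1 site and 2 an E-box in at least 1 window. A TATA box is found in 11.5% of all windows, a GC box in 44.9%, an AP-1 site in 7.71% and an E-box in 7.25%. Some members have several windows, which these shares do not take into account. These matches describe the letters of the window and not the binding of a factor.

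ANXA2 and S100A10, whose products join into a tetramer under the plasma membrane that also binds plasminogen, did not follow each other. ANXA2 had signals of 352 in NGP, 16856 in IMR-32 and 27557 in the pool with its brightest probe set. It was 78.2-fold lower than the pool in NGP and 1.63-fold lower in IMR-32, so that only NGP was called (gene values -6.24 and -0.73). This call rests on the 3 bright probe sets, and on the dim one alone NGP was at -1.36 and not called. S100A10 had signals of 72.9 in NGP, 50.5 in IMR-32 and 10356 in the pool. With this probe set it was at least 105-fold lower than the pool in NGP and at least 115-fold lower in IMR-32, where ANXA2 was near the level of the pool. S100A10 was called lower in both lines (-5.19 in NGP and -4.86 in IMR-32) as the median of 2 probe sets. The 3 bright ANXA2 probe sets gave similar signals, 309 to 352 in NGP, 15724 to 16856 in IMR-32 and 25095 to 27599 in the pool. All 3 are of a kind that can bind more than 1 transcript, and ANXA2 has processed copies, to which a part of the signal could belong. The 4th probe set, with 40.7 in NGP, 32.4 in IMR-32 and 104 in the pool, was dim on all arrays and did not share the difference between the lines (0.33).

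S100A11, a partner of ANXA1 that acts in keratinocyte growth control and membrane repair, had an IMR-32 signal far below the array median. Its single probe set had signals of 479 in NGP, 3.11 in IMR-32 and 7790 in the pool. It was 16.3-fold lower than the pool in NGP (-4.02) and at least 86.6-fold lower in IMR-32 (-11.29), a bound close to that of ANXA1 and below that of S100A10, and this IMR-32 value is part of why the list was made. ANXA1, which mediates anti-inflammatory effects of glucocorticoids, had signals of 81.7 in NGP, 28.4 in IMR-32 and 7796 in the pool with its brightest probe set, at least 78.9-fold lower than the pool in NGP and at least 86.7-fold lower in IMR-32. The second ANXA1 probe set was dim on all arrays, with 60.8 in NGP, 45.0 in IMR-32 and 26.6 in the pool, and it pulled the gene values to -2.69 in NGP, just short of the limit, and to -3.67 in IMR-32, past it.

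S100A6 (calcyclin), known from proliferating cells, was the member with the largest bound in NGP. Its bright probe set had signals of 38.9 in NGP, 2287 in IMR-32 and 27415 in the pool, which is at least 278-fold lower than the pool in NGP and 12.0-fold lower in IMR-32. IMR-32 was thus between NGP and the pool. The second probe set was dim on all arrays (6.01 in NGP, 73.8 in IMR-32 and 40.5 in the pool), so that the gene values were -6.11 in NGP, which was called, and -1.36 in IMR-32, which was not. With the bright probe set alone IMR-32 was called as well (-3.58, limit -3.01). ANXA11, which binds S100A6 and RNA granules, had signals of 38.7 in NGP, 230 in IMR-32 and 8441 in the pool with its brightest probe set. With this probe set it was at least 85.5-fold lower in NGP and 36.7-fold lower in IMR-32 than in the pool. The second probe set had 63.3 in NGP, 118 in IMR-32 and 571 in the pool. The 3rd was dim on all arrays, with 16.3 in NGP, 8.93 in IMR-32 and 73.8 in the pool. The gene values over these 3 probe sets were -3.17 in NGP and -3.05 in IMR-32, both called lower. Both calls were lost with 5% limits, and the NGP call also without _s_at and _x_at probe sets.

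S100A16, S100A4 and S100A13 are expressed in many tissues. S100A16 had signals of 40.3 in NGP, 429 in IMR-32 and 11385 in the pool, at least 115-fold lower than the pool in NGP (-8.14) and 26.5-fold lower in IMR-32 (-4.73). S100A4, a protein that binds non-muscle myosin and is linked to cell motility, had signals of 815 in NGP, 54.3 in IMR-32 and 3248 in the pool. In NGP it was 3.99-fold lower than the pool (-1.995), short of the limit, and in IMR-32 at least 36.1-fold lower (-5.90). S100A4 therefore ran opposite to S100A16 between the lines. S100A13, which takes part in the export of FGF1, had signals of 43.3 in NGP, 334 in IMR-32 and 4035 in the pool with its brightest probe set. Its second probe set was not dim on any array and stood level with the pool, at 158 in NGP, 130 in IMR-32 and 165 in the pool. The gene values were therefore -3.30 in NGP, which was called, and -1.97 in IMR-32, which was not. With the brightest probe set alone IMR-32 was called too (-3.59), and the NGP call was lost without dim probe sets and with 5% limits.

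A group of S100 genes, put together after their values were seen, was dim in both lines and holds genes known from myeloid or epithelial cells. S100A8 and S100A9 are the subunits of calprotectin in neutrophils and stressed epithelium. S100A8 had signals of 24.3 in NGP, 47.9 in IMR-32 and 2585 in the pool with its brightest probe set, and S100A9 had 18.7 in NGP, 14.4 in IMR-32 and 1345 in the pool. S100A8 was at least 26.2-fold lower than the pool in NGP and at least 28.7-fold lower in IMR-32. S100A9 was at least 13.6-fold lower in NGP and at least 14.96-fold lower in IMR-32. S100P, first described in placenta, had signals of 65.8 in NGP, 13.9 in IMR-32 and 3661 in the pool, at least 37.1-fold lower in NGP and 40.7-fold lower in IMR-32. Each of these was called lower in both lines. S100A14, an epithelial S100 gene, had signals of 42.5 in NGP, 36.9 in IMR-32 and 2231 in the pool, and S100A2, found in basal epithelial cells, had 8.80 in NGP, 59.3 in IMR-32 and 1142 in the pool. S100A14 was at least 22.6-fold lower than the pool in NGP and at least 24.8-fold lower in IMR-32. S100A2 was at least 11.6-fold lower in NGP and at least 12.7-fold lower in IMR-32, and both genes were called in both lines. Pool signals were weaker for S100A7 (psoriasin of skin, 215), S100A12 (calgranulin C of neutrophils, 185) and S100A3 (of the hair cuticle, 153), so that their bounds were only 1.55-fold to 2.39-fold in either line. Without the bound, S100A7 was at -5.34 in NGP and -5.04 in IMR-32, S100A3 at -3.22 and -3.45, and S100A12 at -1.48 and -3.50, all called except S100A12 in NGP. Every one of these calls was lost with signals floored at the array median, and that of S100A3 in NGP also without dim probe sets and with 5% limits.

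S100B, a marker of glia and Schwann cells, was not detected above the dim range in any sample, with brightest signals of 4.38 in NGP, 6.77 in IMR-32 and 5.71 in the pool. S100A1, known from heart muscle and neurons, had 62 in NGP, 36.2 in IMR-32 and 105 in the pool. S100A5, S100G (calbindin of the intestine) and S100Z had signals between 9.77 and 37.5 on all arrays. None of these 5 genes was called over the pool in either line, and their ratios, from -1.54 to 1.56, rest on signals below the array medians.

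Among the annexins, ANXA5, ANXA6 and ANXA7 kept clear signals in both lines. ANXA6, a large annexin with doubled core repeats, had signals of 1732 in NGP, 1928 in IMR-32 and 2021 in the pool with its brightest probe set, within 1.17-fold of the pool. ANXA5, used as a probe for phosphatidylserine on dying cells, had signals of 1857 in NGP, 1658 in IMR-32 and 5045 in the pool, 2.72-fold and 3.04-fold lower than the pool and not called. The 2 ANXA7 probe sets lay at 1818 and 2137 in NGP, 1180 and 1598 in IMR-32, and 9534 and 10605 in the pool. ANXA7 (synexin), which promotes membrane fusion, was at -2.35 in NGP and at -2.87 in IMR-32, past the limit of -2.83 by far less than the spread between probe sets. Thus ANXA6 was the one member with a clear signal in both lines whose brightest probe set stood level with the pool. Its second, weaker probe set (124 in NGP, 45.1 in IMR-32, 29.7 in the pool) turned the gene values to 0.92 in NGP and 0.27 in IMR-32.

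The other annexins were lower than the pool. ANXA4, an annexin of secretory epithelia, had signals of 126 in NGP, 258 in IMR-32 and 1505 in the pool with its brightest probe set, 11.9-fold and 5.83-fold lower, and gene values of -5.38 in NGP, which was called, and -2.61 in IMR-32, which was not. ANXA3 had signals of 41.6 in NGP, 48.4 in IMR-32 and 692 in the pool, at least 7.01-fold lower in NGP and 7.70-fold lower in IMR-32. ANXA10, an annexin of gastric epithelium, had signals of 23.7 in NGP, 108 in IMR-32 and 889 in the pool, at least 9.004-fold lower in NGP (-5.23) and 8.24-fold lower in IMR-32 (-3.04). ANXA3 and ANXA10 were called lower in both lines, and so was ANXA9, at -4.61 for NGP and -4.42 for IMR-32, at least 2.64-fold and 2.90-fold lower with the brightest probe set. The exception was ANXA13, an annexin of intestine and kidney. Its only probe set had 90.9 in NGP, 42.3 in IMR-32 and 20.99 in the pool, and it was called higher in NGP (2.11) from signals that were dim on all arrays.

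**Figure D2:**
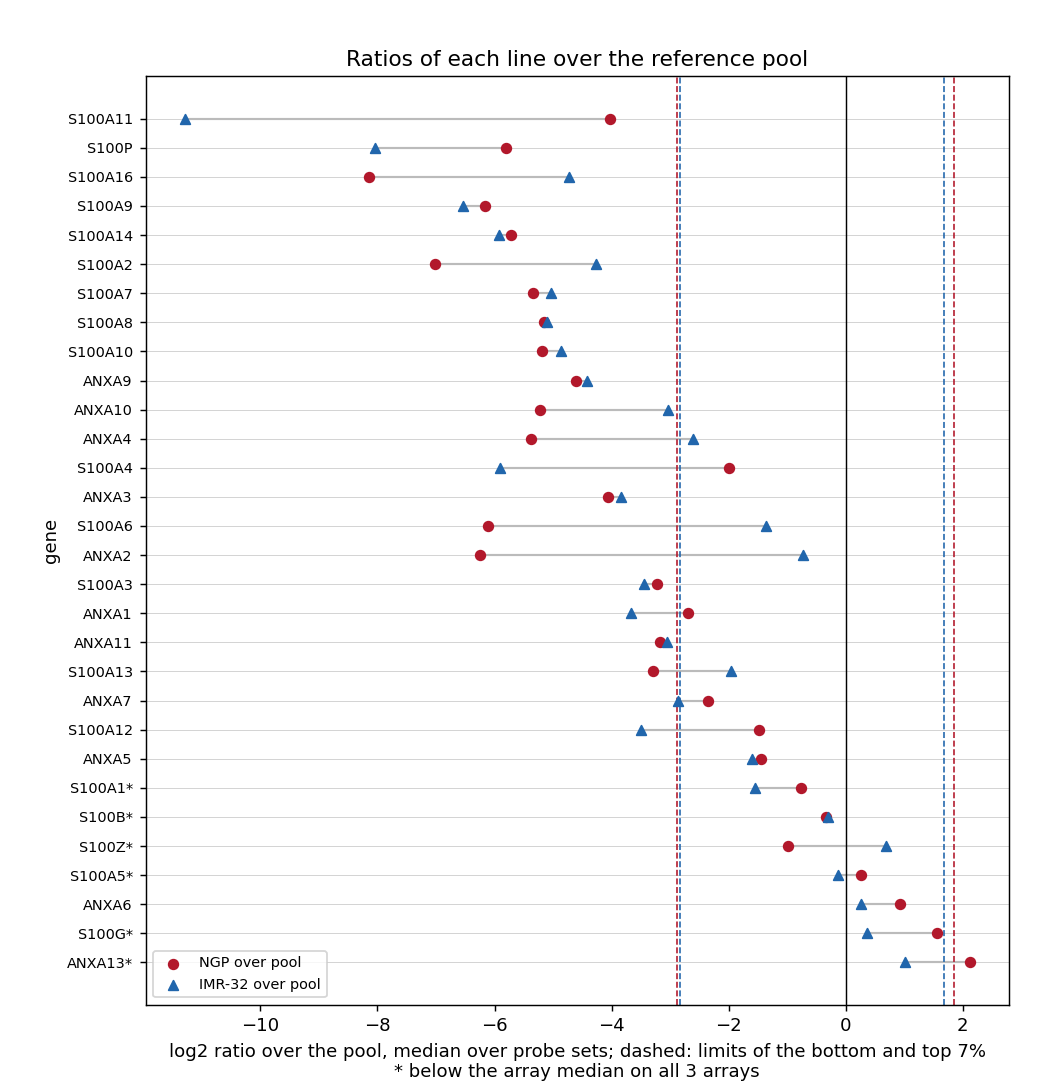
Log2 ratios over the pool (x-axis) of the 30 genes (y-axis, ordered by the mean of both ratios) in NGP and IMR-32, each point the median over the probe sets of the gene, with the limits of the bottom and top 7% as dashed lines. In each line, 18 genes lie left of the lower limit. S100A6 and ANXA2 lie far to the left in NGP alone (-6.11 and -6.24), and S100A4 in IMR-32 alone (-5.90).

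Set directly against each other, the lines differed for a minority of members. In NGP, 4 of the 30 genes were called higher than in IMR-32 and 6 lower, where 7.004% of all genes are called higher and 7.004% lower. The members had a median log2 ratio of 0.06 and all genes one of 0.02. This comparison shares the NGP array with one comparison over the pool and the IMR-32 array with the other, and S100A11 was chosen for its low value in IMR-32.

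Lower in NGP than in IMR-32 were ANXA2, S100A6, S100A16, ANXA4, S100A2 and ANXA10. ANXA2 was 47.8-fold lower with its brightest probe set and S100A6 at least 23.1-fold lower, with gene values of -5.55 and -4.75. S100A16 was at least 4.35-fold lower (-3.41). The 2 ANXA4 probe sets were at 14.1 and 126 in NGP and at 320 and 258 in IMR-32, so that the size of its difference (-2.77) rests on the first of them, and with the brighter one alone it was not called (-1.03). For S100A2 (-2.75) both lines were dim, and for ANXA10 (-2.19) the bound was 1.09-fold, so that no size can be given. S100A13 and ANXA11 were lower in NGP with their brightest probe sets (at least 3.38-fold and 2.33-fold), but their gene values of -1.33 and -0.90 were not called.

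Higher in NGP than in IMR-32 were S100A11, S100A4, S100P and S100A12. S100A4 was 14.997-fold higher, or at least 9.06-fold with the dim IMR-32 signal raised to the array median (3.91). S100A11 was at least 5.33-fold higher (7.27), and as given above its IMR-32 signal entered the choice of the list. S100P (2.24) and S100A12 (2.02) were dim in both lines, and no bound above 1.10-fold is left for either. The remaining 20 genes were not called, among them S100A10 (-0.33), ANXA5 (0.16) and ANXA6 (0.65). The lines thus differed in both directions. Of the 2 lines, S100A6 was above the array median only in IMR-32, S100A4 and S100A11 only in NGP, and ANXA2 in both.

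**Figure D3:**
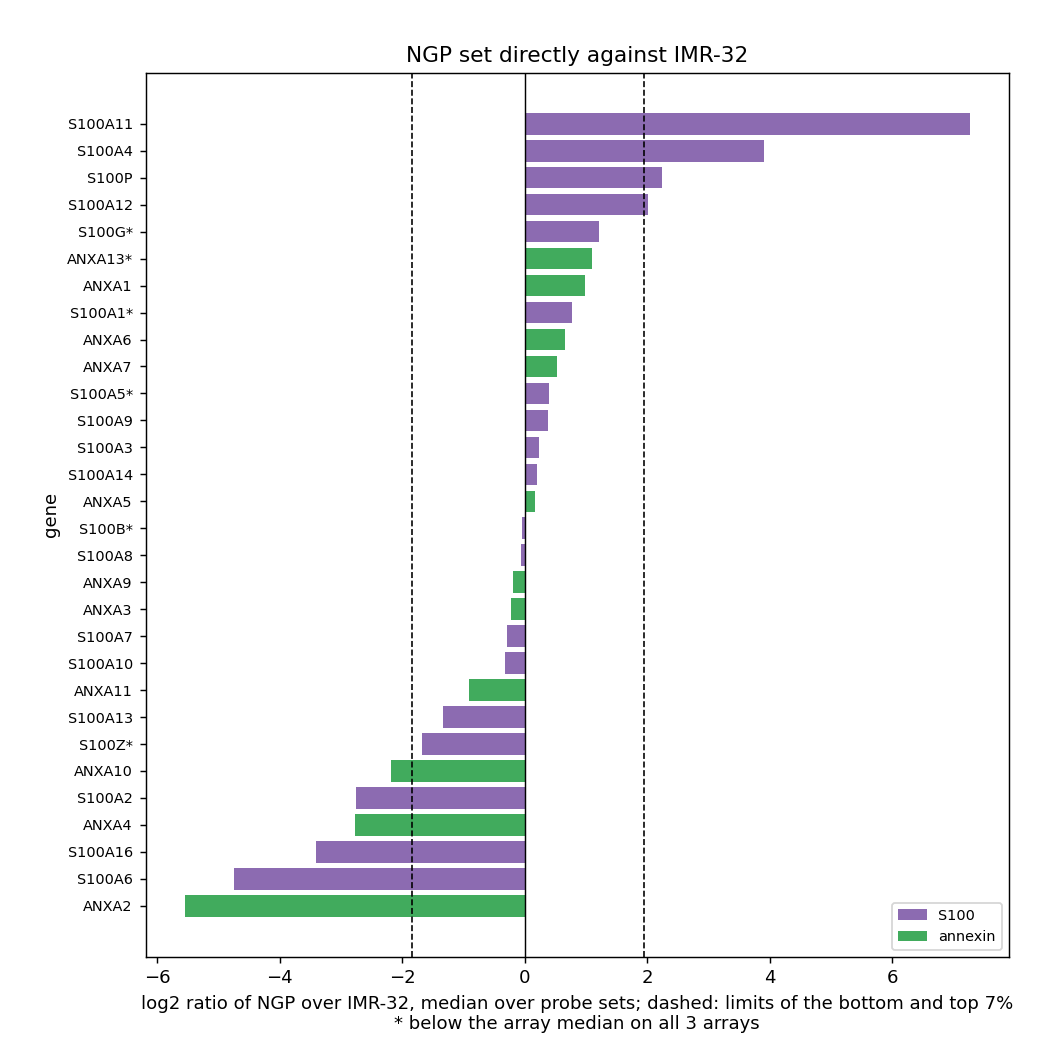
Log2 ratio of NGP over IMR-32 (x-axis) of the 30 genes (y-axis), the median over probe sets, S100 genes and annexins in different colours, with the limits of the bottom and top 7% as dashed lines and an asterisk on genes dim on all arrays. The bars of S100A11 (7.27) and S100A4 (3.91) reach furthest right, and those of ANXA2 (-5.55) and S100A6 (-4.75) furthest left.

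Of the 19 S100 genes, 15 lie on 1q21, from S100A10 to S100A1. In this cluster 11 of 15 were called lower in NGP and 11 of 15 in IMR-32, with medians of -5.16 and -4.73. Over all genes, 7.004% are called at either end, which holds for the counts below too. The IMR-32 count includes S100A11, whose low value there entered the choice of the list, so nothing is read from it. The 30 measured genes that lie between them, mostly of the epidermal differentiation complex, had medians of -0.38 in NGP and -0.95 in IMR-32, with 3 called lower and 4 higher in NGP, and 4 lower and 1 higher in IMR-32. They include S100A7A, an S100 gene that is not on the list, which was at -0.17 in NGP and -0.20 in IMR-32 and was not called. The 10 measured genes on each side had medians of -0.07 in NGP and 0.01 in IMR-32, with 2 and 3 of 20 called lower. Of the 30 genes between, 25 were dim in NGP, 23 in IMR-32 and 19 in the pool, so that many of their ratios rest on dim signals. The 14 members outside chromosome 1 had medians of -2.52 in NGP and -2.11 in IMR-32, and 6 were called lower in each line. Copy number was not analysed here.

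**Figure D4:**
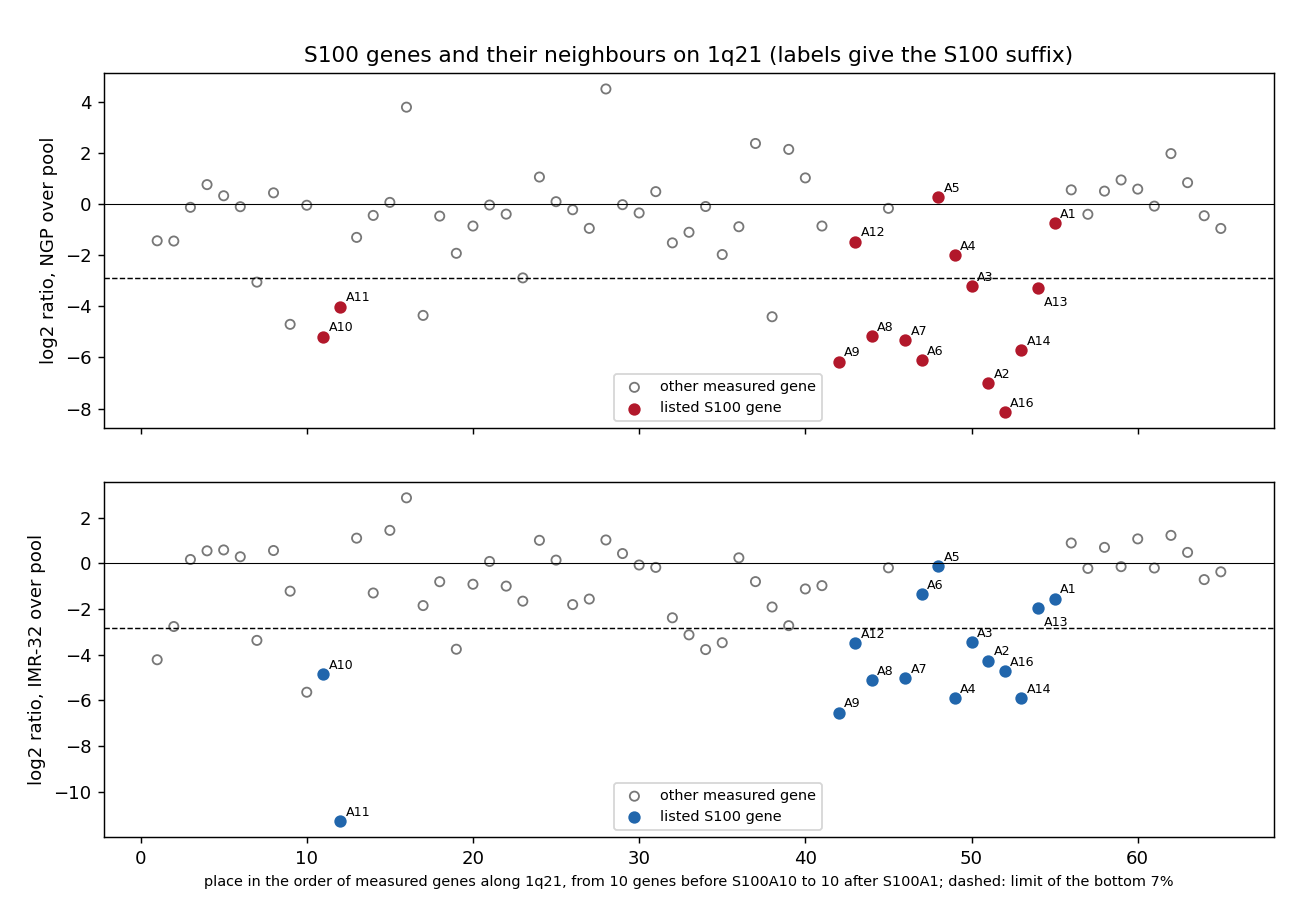
Log2 ratios over the pool (y-axis) of NGP and IMR-32 along the order of measured genes on 1q21 (x-axis), from 10 genes before S100A10 to 10 genes after S100A1, with the 15 listed S100 genes filled and all other genes, S100A7A among them, open, and the limit of the bottom 7% as a dashed line. Of the filled points 11 lie below the limit in each line, S100A11 of IMR-32 the furthest (-11.29). Open points between them had medians of -0.38 in NGP and -0.95 in IMR-32, and those on the sides -0.07 and 0.01. Some open points lie below the limit too.

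Partners of both families and several other calcium-binding lists had medians between 0.06 and -0.90, while the calmodulin-like genes lay lower. Of 22 partners and receptors, 2 were called lower in each line, namely CD36, a scavenger receptor that takes up fatty acids with calprotectin, and PLA2G4A, a cytosolic phospholipase. PLA2G4A had signals of 1.85 in NGP, 1.69 in IMR-32 and 207 in the pool. In NGP, 2 were called higher, KCNK3, a potassium channel whose transport S100A10 influences (1215 in NGP, 642 in IMR-32 and 148 in the pool), and TLR4, a receptor of calprotectin, which was dim. AHNAK, the large scaffold bound by the ANXA2 and S100A10 complex, was at -0.38 in NGP and -1.43 in IMR-32, and CACYBP, which binds S100A6, at 0.35 and 0.46. The list as a whole had medians of -0.35 in NGP and -0.90 in IMR-32.

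The 21 neuronal calcium sensors and buffers had medians of -0.03 in NGP and -0.05 in IMR-32. In NGP 2 were called higher and 2 lower, and in IMR-32 2 were called higher and 3 lower. CALB1 (calbindin) had signals of 128 in NGP, 960 in IMR-32 and 77.3 in the pool, HPCA (hippocalcin) had 113, 860 and 149 in the same order, and both were called higher in IMR-32. VSNL1, a visinin-like sensor, was called higher in NGP (987 in NGP, 520 in IMR-32 and 302 in the pool). CALB2 (calretinin) and EFHD1 were called lower in both lines, and EFHD1 also lower in NGP than in IMR-32 (-2.88). The EFHD1 signal was dim in NGP (12.6) and just above the array median in IMR-32 (92.8), so that no size can be given for this difference. HPCAL1, the brightest of the list in the pool, was called lower in IMR-32 alone (2048.5 in NGP, 830 in IMR-32 and 7535 in the pool). The summed signal of the list was 6462 in NGP, 5715 in IMR-32 and 13861 in the pool. Of the 21, 3 were called higher in NGP than in IMR-32 and 4 lower, beside 7.004% of all genes at either end. The median of this ratio was 0.23. CALB1 and HPCA were among the lower (-3.47 and -2.93), and RCVRN, NECAB2 and SCGN were the higher (2.96, 2.59 and 2.23). RCVRN was dim on all arrays (98.45 in NGP, 12.6 in IMR-32 and 60.2 in the pool). NECAB2 (141 in NGP, 23.4 in IMR-32) and SCGN (257 and 54.8) were dim in IMR-32, so that these ratios give no exact size.

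The 13 penta-EF-hand genes had medians of -0.47 in NGP and -0.88 in IMR-32, with CAPN6 the 1 gene called lower in each. The 9 copines, a further family of calcium-dependent membrane binders, had medians of 0.06 in NGP and -0.74 in IMR-32, with 0 called lower and CPNE4 called higher in both from dim signals in the pool and in IMR-32. CPNE8 had signals of 868 in NGP, 32.7 in IMR-32 and 266 in the pool, and was called higher in NGP than in IMR-32 (4.24), by at least 9.65-fold. Of the 7 calmodulin genes 4 were measured, all of them calmodulin-like, with medians of -2.17 in NGP and -1.22 in IMR-32, and CALML5 called lower in both lines and CALML3 in NGP. The 5 measured genes of the fused S100 type, such as FLG, were dim on all arrays.

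**Figure D5:**
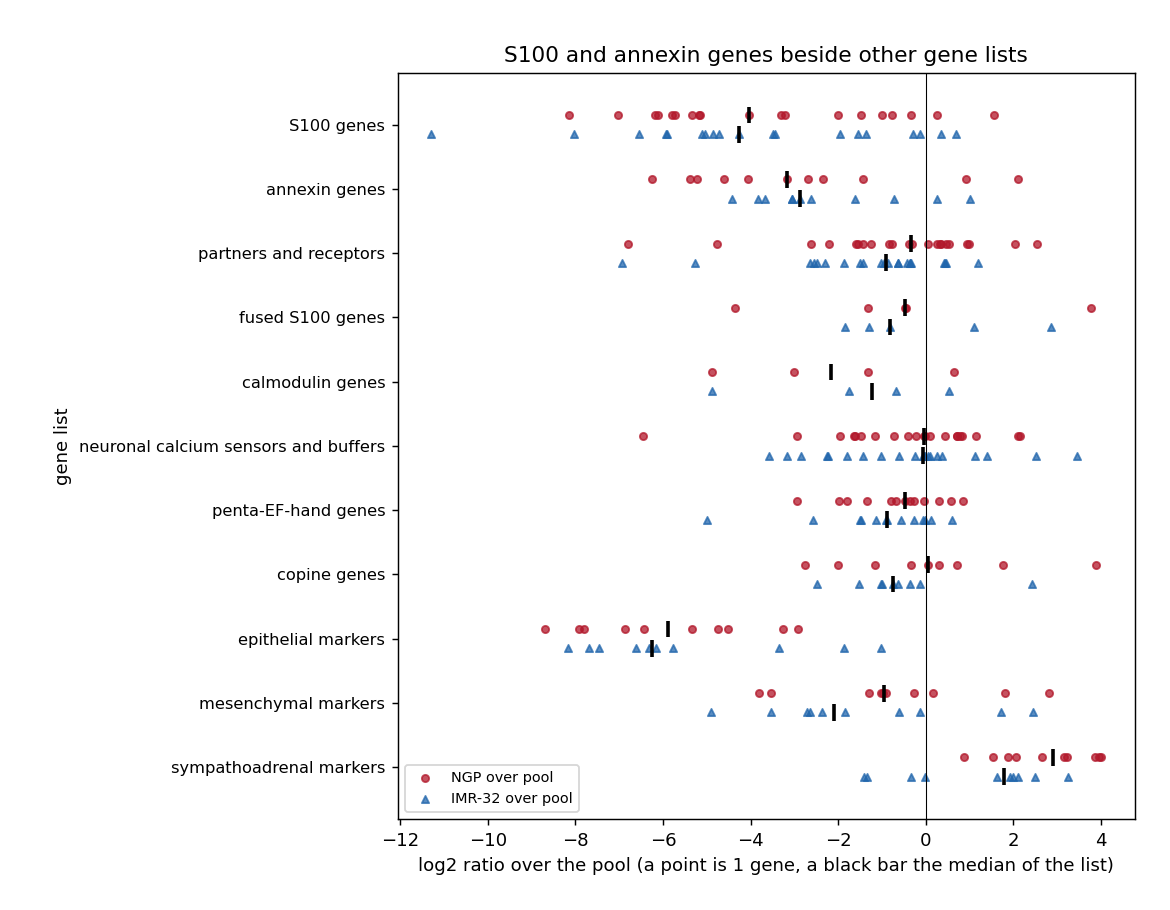
Log2 ratios over the pool (x-axis) of single genes in NGP and IMR-32, grouped by gene list (y-axis), with the median of each list as a black bar. The S100 genes (-4.02 in NGP, -4.27 in IMR-32) and annexins (-3.17 and -2.87) lie left of the other calcium-binding lists, and the epithelial markers (-5.88 and -6.24) lie further left still.

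Markers of epithelial cells were low in both lines together with these genes. Of 10 epithelial markers, 10 were called lower in NGP and 8 in IMR-32, over the pool, and their summed signal was 830 in NGP, 844 in IMR-32 and 70098 in the pool. KRT7 was only just past the limit in NGP (-2.92). Its brightest probe set was near the pool, with 352 in NGP, 249 in IMR-32 and 429 in the pool. KRT18 had signals of 117 in NGP, 98.2 in IMR-32 and 28088 in the pool, and EPCAM had 17.2, 40.97 and 7157 in the same order. No signal is at 0 in these data, and 6 of the 10 markers were dim in each line. CLDN4 was called lower in NGP than in IMR-32 (-2.64), with both lines dim. Of 10 mesenchymal markers, 2 were called lower and 1 higher in NGP, and 2 lower and 2 higher in IMR-32, with medians of -0.95 in NGP and -2.10 in IMR-32 and a summed signal of 39583 in NGP, 23254 in IMR-32 and 40716 in the pool, to which VIM gave 19692 in NGP, 10999 in IMR-32 and 21583 in the pool. Of 8 haematopoietic markers 2 were called lower in each line (summed signal 1146, 1035 and 3175). The part that epithelial or other lines of the pool have in the S100 and annexin ratios was not tested.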

How the data were processed

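Expression was measured in NGP, IMR-32 and a pool of 16 cancer cell lines, with 1 Affymetrix U133 Plus 2.0 array per sample. The deposited values are signal intensities that the authors computed by MAS5 as implemented in affy from Bioconductor, whose version the sources used here do not give, and they are scaled to a mean of 500 in each array without the highest and lowest 2% of 54675 probe sets. Control probe sets (62) were left out, and so were the 1801 that name several genes and the 11721 that name none. The 41091 others were assigned to 19775 genes, 41037 of them matched to the GRCh38.p14 gene table by gene ID. Log2 ratios and the limits of the top and bottom 7% follow the study's methods. Taking 1 median ratio per gene was a choice made here. No test was possible with 1 array per sample, and no sample was left out.

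Members and gene lists were chosen with earlier results of these data known. All members were to be named, with values in all samples for those called and not dim on all arrays, genes of other lists where called with high signals, and promoters for the 2 lowest in both lines and the 2 called higher. The lists were S100, annexin, partner, fused S100, calmodulin, neuronal sensor, penta-EF-hand and copine genes, and sympathoadrenal, mesenchymal, epithelial, haematopoietic, melanocytic and Schwann cell markers. Of 5 melanocytic markers measured, 1 was called lower in IMR-32 and 1 higher in NGP, and of 4 Schwann cell markers 0 in either line. In all, 11 alternatives were run: median-centred ratios, quantile normalization, log2(signal + 32), signals floored at the array median, dim probe sets left out, only the brightest probe set of a gene, means in place of medians, _s_at and _x_at probe sets left out, limits over all probe sets, and 5% or 10% limits. Leaving out S100A11 was added after the data were seen. The ratio script was tested on simulated data. Python 3.11.15, numpy 2.4.6 and pandas 2.3.3 were used.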

Additional observations from a re-analysis of the deposited data

Results flagged for a closer look

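S100A5 and S100Z had ratios over the pool that ran opposite ways in the 2 lines. S100A5 was at 0.27 in NGP and -0.14 in IMR-32, and S100Z at -0.99 in NGP and 0.68 in IMR-32. All signals of both genes were below the array medians, and with 1 array per line the difference between the lines was not tested.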

How the results depend on the processing

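The counts of members called lower stayed within 1.5 times of the given counts in all 3 comparisons under all 11 alternatives. The setting without dim probe sets is no check over the pool. It keeps every member that is dim in the line and not in the pool because of the pool alone. These include the 12 that are dim in both lines, so nothing is read from the counts and medians of this setting there. The count called higher in NGP over the pool (1) was 0 with floored signals, without dim probe sets, with limits over all probe sets and with 5% limits, and 2 with 10% limits. The count called higher in NGP over IMR-32 (4) was 2 with floored signals, without dim probe sets, without _s_at and _x_at probe sets, with limits over all probe sets and with 5% limits, and S100A11 and S100A4 kept their calls wherever they were measured. The median of members in NGP over the pool (-3.66) was -2.75 with log2(signal + 32), -2.51 with floored signals, -5.36 without dim probe sets, -4.07 with the brightest probe set, -4.04 with the mean over probe sets, and -3.30 both without _s_at and _x_at probe sets and without S100A11. In IMR-32 over the pool (-3.25) it was -2.58, -2.13, -4.05 and -3.59 in the first 4 of these settings. The median in NGP over IMR-32 (0.06) changed sign with quantile normalization (-0.023), without dim probe sets (-1.53) and without S100A11 (-0.040). ANXA2 in NGP over IMR-32 turned to 0.33 without _s_at and _x_at probe sets, which leaves its dim probe set alone, and lost its call in NGP over the pool (-1.36). With floored signals, which sets both sides of a dim pair to the array medians, S100A2 in NGP over IMR-32 turned to 0.14 and ANXA13 in NGP over the pool to -0.27. Of 508 values of called genes under alternatives, the setting without dim probe sets included, 470 kept their call. No paired analysis was possible because each group has 1 sample. Dim signals, which 22 members had in every probe set in NGP and 20 in IMR-32, set the limit on what these arrays can measure.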

Other observations

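The probe sets left out because they name a member beside another gene had these values. The 2 that name ANXA8 and ANXA8L1 were lower than the pool in both lines, the brighter at 135 in NGP, 117 in IMR-32 and 1146 in the pool. The one that names SNU13 and ANXA2 was at 8388 in NGP, 8148 in IMR-32 and 10298 in the pool, without the difference between the lines seen in the bright ANXA2 probe sets. In NGP its signal lay far above those of the bright probe sets that name ANXA2 alone (309 to 352). The share of each gene in it was not tested.

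In the genes beside S100A10 on 1q21, THEM4, an acyl-CoA thioesterase, had signals of 446 in NGP, 11.4 in IMR-32 and 563 in the pool with its brightest probe set, at least 4.96-fold higher in NGP than in IMR-32, whose signal was dim. Next in the measured gene order come S100A10 and S100A11, of which S100A11 was also higher in NGP than in IMR-32 (7.27) and S100A10 was not called (-0.33). THEM4 was singled out after its values were seen.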
